A study of Mus musculus with 12 samples.

Results

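Uridine phosphorylase 1, encoded by Upp1, and phosphoribosyl pyrophosphate synthetase 1, encoded by Prps1, were followed while mouse embryonic stem (ES) cells differentiated in embryoid bodies (EB). The genes were chosen by name, with their values in these data already known, as the features whose symbol is exactly Upp1 or Prps1. They are 2 of 9212 genes measured, each with 1 probe (feature 1468 for Upp1 and feature 1521 for Prps1). The tested samples were dissociated embryoid bodies plated with serum for 4, 8, 15 or 21 days, with 3 arrays a day. The comparison sample on each of the 12 arrays was undifferentiated ES cells of the R1 line, kept on gelatin with leukemia inhibitory factor. The labels give no genetic change and no added agent for either kind of sample. Separate cultures for the 3 arrays of a day are not stated, so the errors below measure only the spread between arrays, which may be technical.

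Uridine phosphorylase splits uridine into uracil and ribose 1-phosphate. The reaction breaks the nucleoside down or, run in reverse, salvages uracil. Phosphoribosyl pyrophosphate synthetase joins pyrophosphate from ATP to ribose 5-phosphate, the product of the pentose phosphate pathway. The activated sugar it makes, PRPP, is the shared starting point of purine synthesis, of the orotate step of pyrimidine synthesis and of purine base salvage. Dividing cells such as ES cells need both new and recycled nucleotides for RNA and DNA.

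Values are log ratios of embryoid body over ES cell as deposited, taken to be of base 2. On that base a value of -1 means that the embryoid body signal was 0.5 of the ES signal. The linear ratios and fold differences below rest on it. The direction is likely and not settled. The label protocols give Cy5 to embryoid body RNA, which makes a positive value higher in embryoid bodies, while the sample titles and dye fields give the opposite order. Read this way, all 8 measured pluripotency markers were called lower at day 21 (list median -1.93), and 5 of 7 endoderm markers higher (list median 2.52). The direction was taken from the label protocols and not from these markers, which show only the way that known genes run under it. Under the opposite direction, higher and lower trade places throughout. All arrays have one dye orientation, and a probe's own dye bias therefore remains in its values.

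The first principal component of the differences between arrays of a day, over 1448 features without a gene name, split the arrays into 2 sets that cut across the days. The third arrays of days 4, 15 and 21 and the arrays 2 and 3 of day 8 correlated with each other by 0.59 to 0.758, and with the other 7 arrays by 0.032 to 0.457. Those 7 correlated among themselves by 0.054 to 0.738 (median 0.287, against 0.31 between the sets), so they are the remaining arrays and not a coherent set. Each day had arrays of both sets, and values within sets are given beside those of Upp1 and Prps1. The set of 7 is called the first set and the set of 5 the second.

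The reference sequences around the annotated starts of both genes are shown because the ratios of both genes were lower after day 8 than up to it. Each run covers 250 bases before and 50 bases after a start site, from RefSeq on GRCm38.p6, plus strand, at chr11:9117758-9118057 for Upp1 (the first of 3 annotated starts) and at chrX:140456353-140456652 for Prps1. Capitals mark GGGCGG or its reverse complement CCGCCC, the letters of a GC box, and CCAAT or its complement ATTGG.
Upp1: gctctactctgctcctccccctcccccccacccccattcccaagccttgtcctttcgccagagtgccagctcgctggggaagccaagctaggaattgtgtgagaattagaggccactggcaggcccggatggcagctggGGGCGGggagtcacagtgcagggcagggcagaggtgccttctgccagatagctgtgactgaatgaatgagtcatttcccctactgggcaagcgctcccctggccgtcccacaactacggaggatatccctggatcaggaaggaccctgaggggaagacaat
Prps1: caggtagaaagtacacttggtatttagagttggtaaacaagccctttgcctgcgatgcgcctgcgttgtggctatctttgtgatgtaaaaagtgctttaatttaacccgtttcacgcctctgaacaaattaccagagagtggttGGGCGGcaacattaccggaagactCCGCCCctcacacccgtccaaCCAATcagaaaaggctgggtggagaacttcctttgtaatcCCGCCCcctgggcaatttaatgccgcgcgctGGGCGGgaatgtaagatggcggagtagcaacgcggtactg

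Counted from the start site as base 1, the Upp1 window held 1 GC box, at base -111. Each of the other 2 annotated Upp1 windows also held 1, which for the second start is the same stretch of DNA. The Prps1 window held 4 GC boxes, at bases -106, -82, -21 and 11, and 1 CCAAT at base -61. Of 32851 mouse windows of this length, 35.7% held GGGCGG on either strand and 37.4% held CCAAT. The E-box CACGTG (7.2% of windows), the octamer ATGCAAAT (1.7%) and TATAAA (13.6%) were searched on both strands and have no match in these windows. The Prps1 window held 17 CG pairs and the Upp1 window 7, the same as the median of all windows.

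Upp1 was close to ES cells at day 4 and far below them at days 15 and 21. After 4 days its log2 ratio was -0.21, -0.19 and -0.32 on arrays 1 to 3. After 8 days the arrays disagreed, at 0.16, -0.48 and -0.87. After 15 days they stood at -1.82, -1.81 and -1.44, and after 21 days at -2.05, -1.72 and -1.78.

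The Upp1 mean was -0.24 ± 0.07 at day 4, -0.40 ± 0.52 at day 8, -1.69 ± 0.22 at day 15 and -1.85 ± 0.17 at day 21 (SD, n = 3 each). In linear terms the embryoid body signal was 0.846, 0.759, 0.311 and 0.277 of the ES signal, which is 3.61-fold lower by day 21. In the order of levels, days 4 and 8 overlapped, as did days 15 and 21, while every array of days 15 and 21 lay below every array of days 4 and 8. The day 15 mean was 91.2% of the day 21 mean. The day 8 mean rested on single arrays, at -0.67 without array 1 and -0.16 without array 3. These are the values by which the gene was chosen, so they are given without a test. Among 10689 features Upp1 had rank 6 from the lowest mean at day 15 and rank 10 at day 21, and Prps1 ranks 17 and 28.

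Prps1, like Upp1, was below ES cells on every array at day 4. It was lower than Upp1 on arrays 1 and 2 but not on array 3. Its log2 ratio at day 4 was -0.60, -0.61 and -0.24. It was -0.45, -0.51 and -0.85 at day 8. It was -1.35, -1.47 and -1.34 at day 15, and -1.41, -1.28 and -1.24 at day 21.

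The Prps1 mean was -0.48 ± 0.21, -0.60 ± 0.22, -1.39 ± 0.08 and -1.31 ± 0.09 at days 4, 8, 15 and 21 (SD, n = 3 each). The embryoid body signal was thus 0.715 of the ES signal at day 4 and 0.403 at day 21, a 2.48-fold lower level. Days 4 and 8 overlapped and days 15 and 21 overlapped, with a gap between the pairs of days. Prps1 stood at 37.0% of its day 21 difference at day 4 and at 105.9% of it at day 15. All 3 arrays were below 0 at day 4 for Prps1 and for Upp1, and so were 15.4% of all features. At day 8 this held for Prps1 only, and for 21.9% of features. It held for both genes at day 15 (23.3% of features) and at day 21 (26.6%). Nothing is read from these counts, since the genes were chosen on these values.

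**Figure D1:**
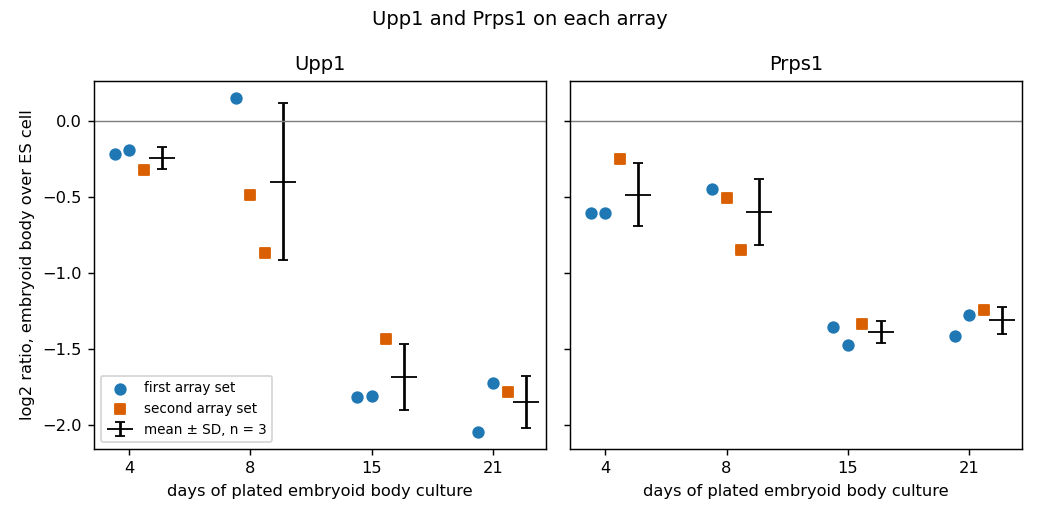
Log2 ratio of embryoid body over ES cell (vertical axis) for Upp1 (left) and Prps1 (right) by day of plated culture (horizontal axis), with a point for each array, circles for the first array set, squares for the second, and the mean ± SD over 3 arrays in black. All 6 late arrays of Upp1 sit between -2.05 and -1.44 and all 6 of Prps1 between -1.47 and -1.24, below every early array of the same gene.

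Between the means of successive days, the step between days 8 and 15 was the largest of the 3 in both genes. For Upp1 the day 15 mean was 1.29 below that of day 8 (difference -1.29), and the nearest arrays of the 2 days were 0.57 apart. For Prps1 the difference was -0.79 and the gap 0.49. All 3 day 15 arrays lay below all 3 day 8 arrays for both genes, as they did for 7.47% of all features. In limma's contrast of these days 0.0468% of all features were called lower and 0.131% higher. Day 21 and day 4 did not overlap in either gene, as in 12.2% of all features. The other steps were small: day 8 minus day 4 was -0.16 for Upp1 and -0.12 for Prps1, and day 21 minus day 15 was -0.16 for Upp1 and 0.08 for Prps1. Both genes overlapped between the days of these steps, and 6.26% and 7.29% of all features had every later array below every earlier one. All days were set against ES cells, so the comparisons between days share that channel.

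Within each array set the large step had the same sign for both genes. Day 15 minus day 8 was -1.97 for Upp1 in the first set, which has 1 day 8 array, and -0.76 in the second. For Prps1 it was -0.97 and -0.66. The size of the Upp1 step thus depended on the day 8 arrays, and in the second set it was -0.76 beside a day 21 mean of -1.78. Day 8 minus day 4 changed sign with the set, at 0.36 and -0.35 for Upp1 and at 0.16 and -0.43 for Prps1. Day 21 minus day 4 was -1.68 and -1.46 for Upp1, and -0.74 and -0.998 for Prps1.

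The spread at day 8 ran in the same order of arrays as the pluripotency, endoderm and mesenchyme markers, but not as every marker list. Upp1 was 0.16, -0.48 and -0.87 on day 8 arrays 1 to 3, Prps1 -0.45, -0.51 and -0.85. The median of the 8 pluripotency markers was -0.32, -0.59 and -1.05 there, and that of the 7 endoderm markers 0.17, 1.02 and 2.25. The mesenchyme median fell along with Upp1 and did not rise with the endoderm median, at -0.01, -0.34 and -0.54. The heart muscle median (-0.11, 0.16 and -0.13) and the blood median (-0.18, -0.004 and -0.10) did not run in order. On day 15 array 3, where Upp1 was highest for that day, the pluripotency median was -1.08, against -1.57 and -1.67 on arrays 1 and 2. The other days differed. At day 4 Upp1 was lowest on array 3 (-0.32), where the pluripotency median was highest (-0.06). At day 21 Upp1 was lower on array 3 than on array 2 (-1.78 against -1.72), while the pluripotency median was higher (-1.66 against -1.97). The part of these differences between arrays in the Upp1 and Prps1 ratios was not tested. In bulk RNA, fewer cells of an expressing type and less RNA per cell cannot be told apart.

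The genes also differed from each other over time. The Upp1 ratio minus the Prps1 ratio on the same array averaged 0.24 ± 0.28 at day 4 and 0.20 ± 0.35 at day 8, with Upp1 the lower of the pair on 1 of 3 arrays each day. It averaged -0.30 ± 0.18 at day 15 and -0.54 ± 0.10 at day 21, with Upp1 lower on 3 of 3 arrays each day. The early difference was that of the first array set, at 0.39 and 0.42 at day 4 and 0.60 at day 8. In the second set it was -0.08 at day 4, and 0.02 and -0.02 at day 8. By the means over 3 arrays Prps1 was nearer its late value at the early days. Upp1 lay further below ES cells at the late days. This compares changes against ES cells, not amounts of RNA.

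Over the 12 arrays Upp1 and Prps1 correlated with Pearson's r = 0.947 and Spearman's rho = 0.867, given as a description, since all arrays share an ES channel and the early and late days form separate groups. Over the 6 arrays of days 4 and 8 alone r was 0.562 and rho 0.314, and over the 6 arrays of days 15 and 21 r was 0.346 and rho 0.6. Of 9211 other genes Upp1 was the fourth most like Prps1, and Prps1 the seventh most like Upp1.

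The 6 genes most like Upp1 over 12 arrays had r of 0.952 to 0.975. They were Acp6, a lipid phosphatase, Abce1, which recycles ribosomes, Fbxo15, an F-box gene of ES cells, Morc1, a gene of male germ cells, Pycard, the inflammasome adaptor, and Plaat3, a phospholipase. Fbxo15, also one of the 8 pluripotency markers, stood at -0.58 ± 0.48 at day 8 and -2.08 ± 0.16 at day 21. Pycard stood at -0.15 ± 0.46 at day 8, -1.57 ± 0.18 at day 15 and -1.92 ± 0.24 at day 21, the values nearest to those of Upp1 among the 6 at the late days. Abce1, with r = 0.958, reached only -0.57 ± 0.18, so likeness here is of shape and not of size. The most opposed genes were Dlk1, an imprinted inhibitor of fat cell formation (r = -0.97), Postn, a matrix protein of mesenchyme (r = -0.966), and Mest, an imprinted gene of mesoderm (r = -0.957).

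Besides Upp1 itself, the genes most like Prps1 were Mkrn1, a ubiquitin ligase, Phc1, a Polycomb protein, Ttc1, Lap3, a leucine aminopeptidase, and Gtpbp4, a nucleolar GTPase of ribosome assembly, with r of 0.945 to 0.964. Phc1 shared the early difference, at -0.51 ± 0.35 at day 4 and -1.79 ± 0.11 at day 21. Mkrn1 had the flat late course of Prps1, with -1.22 ± 0.20 at day 15 and -1.22 ± 0.38 at day 21. The most opposed were Chd3, a chromatin remodeller (r = -0.964), Dlk1 (r = -0.957) and Cdkn1c, an inhibitor of cyclin-dependent kinases (r = -0.955).

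**Figure D2:**
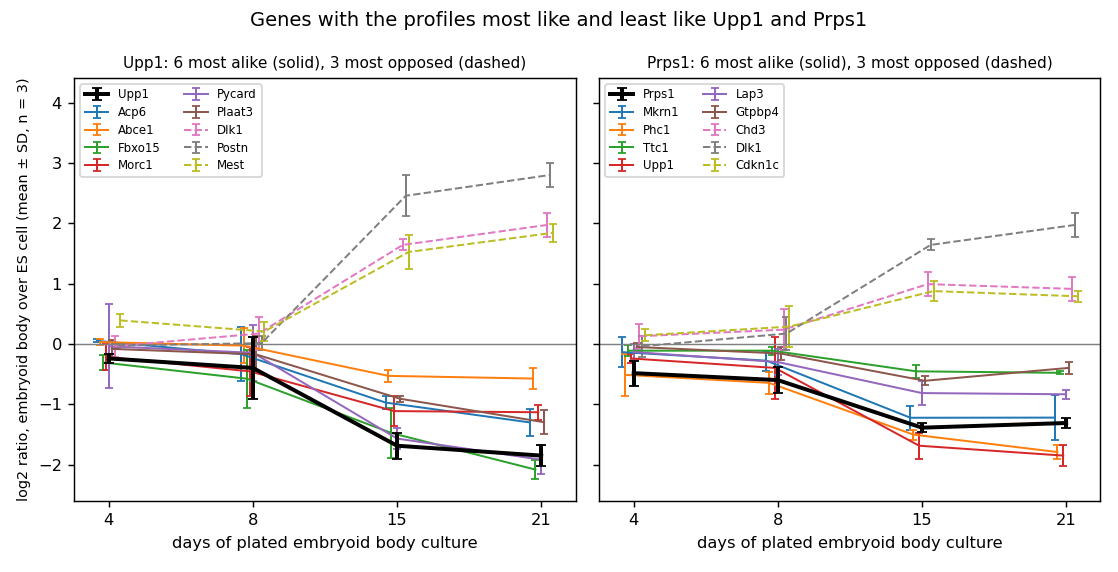
Mean log2 ratio of embryoid body over ES cell (vertical axis, ± SD, n = 3) by day of plated culture (horizontal axis) for Upp1 (left, black) and Prps1 (right, black), their 6 most alike genes (solid) and 3 most opposed genes (dashed). The alike genes end between -0.40 and -2.08, and the opposed genes end between 0.79 and 2.80.

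The other genes of nucleotide metabolism were taken from 7 lists of 100 genes, of which 64 were measured, Upp1 and Prps1 included. The remaining 62 were tested in limma's fit over all 10689 features, with Benjamini-Hochberg adjustment. The lists were chosen with earlier results of these data known, so their shares of called genes are not an independent result. At day 21, 20 of 62 were called lower than ES cells and 0 higher, which is 32.3%, where 9.93% of all features were called lower and 8.78% higher. No called gene differed as much as Prps1 or Upp1, which were chosen with their values known, so nothing is read from that. The list median was -0.21 at day 21, against 0.00 for all features. Without day 21 array 1 the count of lower genes was 9, without array 2 it was 11, and with quantile normalization or with arrays scaled to one spread it was 12 or 11. The count of higher genes was 1 without day 4 array 2 or without day 21 array 3.

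Relatives of Prps1 showed smaller differences. Prpsap2, an inhibitory partner of the synthetase, was -0.58, -0.34 and -0.55 on the day 21 arrays (mean -0.49 ± 0.13, adjusted p = 0.0235). The other partner, Prpsap1, was -0.51, -0.54 and -0.07 (adjusted p = 0.049). Prps1l1, a testis copy of the synthetase, was -0.34, -0.53 and -0.25 (adjusted p = 0.0134). The calls of Prpsap2, Prpsap1 and Prps1l1 were each lost without day 21 array 1 and without array 2, that of Prpsap2 also without array 3, and that of Prpsap1 also without most arrays of other days. Prps2 was not analysed here. Probe sequences were not used, so signal shared between Prps1 and its close copies was not assessed.

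Upstream of Prps1 lie the genes of the pentose phosphate pathway. Taldo1, the transaldolase, fell, at -0.78, -0.68 and -0.48 at day 21 (mean -0.65 ± 0.15, adjusted p = 2.24e-04). Its probes stood at -0.78 and -0.51. Pgls, the lactonase of the oxidative branch, was 0.57, 0.40 and 0.18 at day 15 (adjusted p = 0.0125), the only nucleotide gene called higher that day, and 0.19 ± 0.13 at day 21 (adjusted p = 0.143). Without day 15 array 1 or array 2 that count of 1 was 0, and without day 4 array 2, day 15 array 3 or day 21 array 3 it was 2. Tkt, the transketolase, was -0.29 ± 0.10 at day 21 (adjusted p = 0.131) and Rpia, which makes ribose 5-phosphate, 0.03 ± 0.15 (adjusted p = 0.839).

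Purine synthesis uses PRPP at its first step. Of its 7 measured genes, 4 were called lower at day 21 (57.1%, against 9.93% of all features). All 7 had a mean below 0. Gart, a trifunctional enzyme of the ring assembly, was -0.98, -0.93 and -0.64 (mean -0.85 ± 0.18, adjusted p = 6.09e-05). Atic, which closes the ring, stood at -0.73 ± 0.14 (adjusted p = 0.00307), Paics at -0.45 ± 0.07 (adjusted p = 0.00188) and Adsl at -0.41 ± 0.05 (adjusted p = 0.00329). Adss, Adssl1 and Impdh1, which act after the ring is complete, were not called, at -0.34, -0.01 and -0.25.

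Of the pyrimidine synthesis genes 4 of 5 were called lower at day 21 (80.0%, against 9.93% of all features). All 5 had a mean below 0. Dhodh, the mitochondrial dihydroorotate dehydrogenase, was -1.01, -1.09 and -0.55 (mean -0.88 ± 0.29, adjusted p = 2.60e-04). Its day 21 mean over 3 arrays was the lowest of the 62 genes, but without array 2 Gart was lower, at -0.81 against -0.78 for Dhodh. Dhodh was also the only one called at day 8 (-0.52 ± 0.10, adjusted p = 0.0345), a count of 1 that fell to 0 without any of the 3 day 8 arrays. It fell to 0 as well without day 4 array 1 or day 15 array 1 or 2, and rose to 4 without day 4 array 2. Cad, which carries the first steps, was -0.35 ± 0.15 (adjusted p = 0.0282), Ctps, a CTP synthase, -0.33 ± 0.22 (adjusted p = 0.0422) and Umps, which uses PRPP, -0.26 ± 0.14 (adjusted p = 0.0315). The calls of Cad, Ctps and Umps were lost without day 21 array 1 or array 2, and that of Ctps also without day 4 array 1, day 8 array 1 or 2, or day 15 array 1 or 2. The probes of Umps disagreed, at -0.47 and -0.04.

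Upp1 itself belongs to the pyrimidine salvage and breakdown genes. Of the 10 others, 1 was called lower at day 21 (10.0%, against 9.93% of all features), which is the background share, and the list median was 0.05. That gene, Uck2, the uridine-cytidine kinase that competes for uridine, was -0.36, -0.58 and -0.37 (mean -0.43 ± 0.13, adjusted p = 0.0282), a call lost without any of the 3 day 21 arrays. Its relative Uck1 stood at 0.06 ± 0.14 (adjusted p = 0.738), and the thymidine kinase Tk1 at -0.29 ± 0.15 (adjusted p = 0.07). Slc29a1, an equilibrative nucleoside transporter, was called lower at day 15 (-0.55 ± 0.07, adjusted p = 0.0185) and spread widely at day 21, at -0.88, -0.31 and 0.01.

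Of purine salvage genes 2 of 15 were called lower at day 21 (13.3%, near the 9.93% of all features). Hprt, which joins purine bases to PRPP and like Prps1 lies on chromosome X, was -0.84, -0.80 and -0.30 (mean -0.65 ± 0.30, adjusted p = 0.00752), lost without day 21 array 1 or array 2. It was also called lower than ES cells at day 15 (-0.96 ± 0.19, adjusted p = 0.00161). Aprt, which does the same for adenine, was 0.26 ± 0.37 (adjusted p = 0.116), with the opposite sign. Ak1, an adenylate kinase, fell to -0.53 ± 0.12 (adjusted p = 0.00409).

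**Figure D3:**
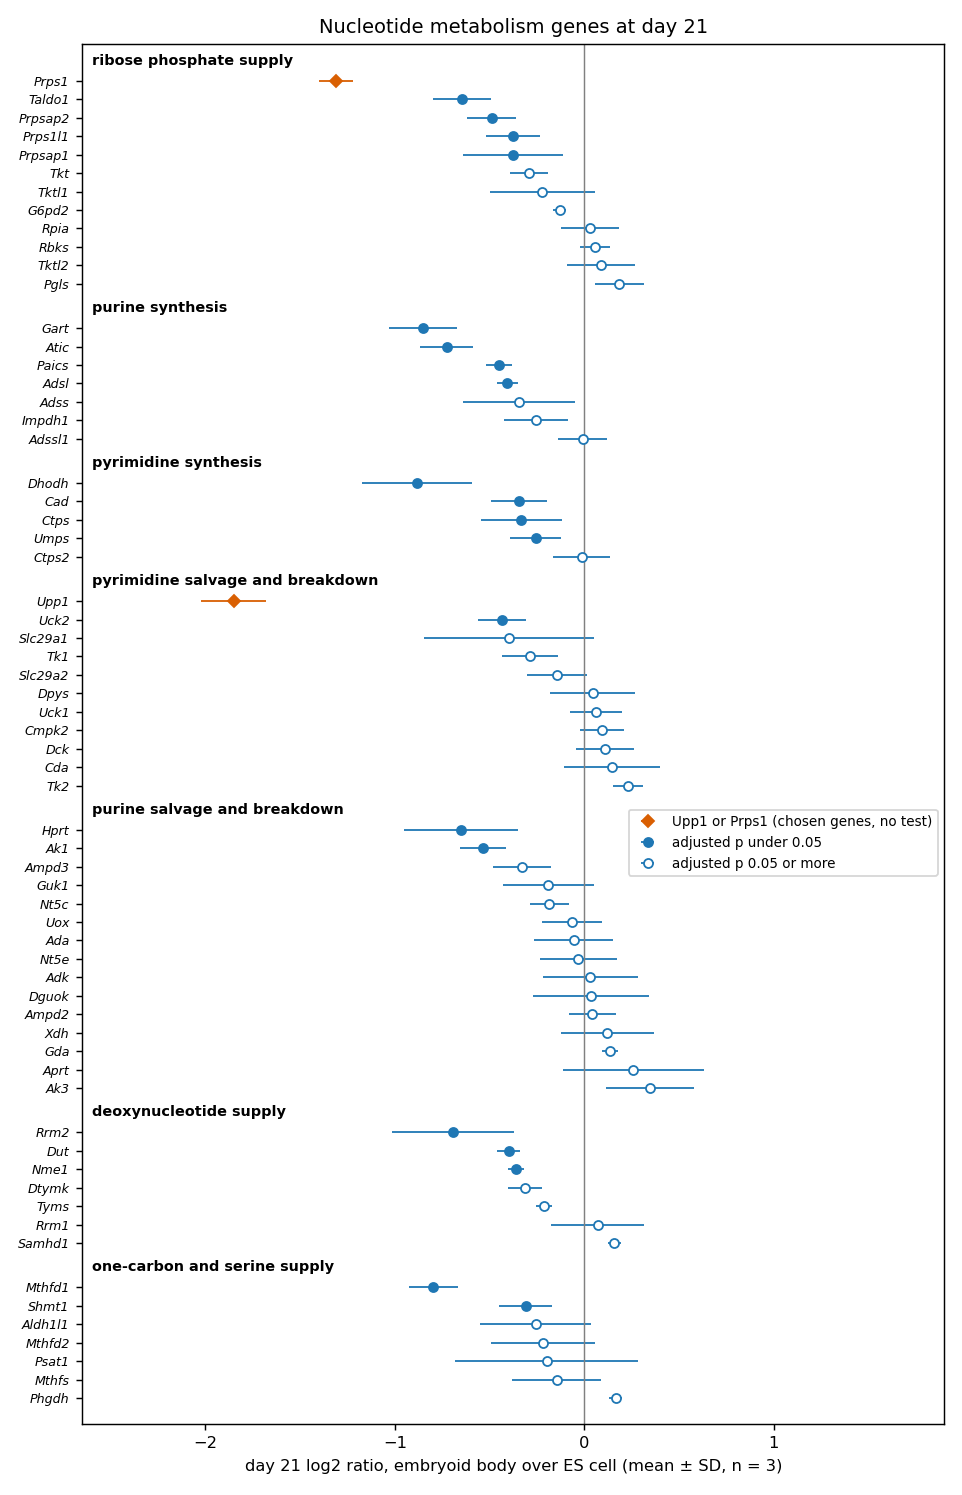
Day 21 log2 ratio of embryoid body over ES cell (horizontal axis, mean ± SD, n = 3) for the 64 measured nucleotide metabolism genes (vertical axis) in 7 lists, with filled circles for genes with adjusted p under 0.05, open circles for the rest, and diamonds for Upp1 and Prps1, which were chosen and carry no test. Upp1 (-1.85) and Prps1 (-1.31) lie left of all other genes, of which Dhodh (-0.88) is the nearest.

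Of deoxynucleotide genes 3 of 7 were called lower at day 21 (42.9%, against 9.93% of all features). The lowest mean was that of Rrm2, the S-phase subunit of ribonucleotide reductase, at -0.49, -0.52 and -1.06 (adjusted p = 0.00361). Dut, which destroys dUTP, stood at -0.40 ± 0.06 (adjusted p = 0.0123) and Nme1, a nucleoside diphosphate kinase, at -0.36 ± 0.04 (adjusted p = 0.00887). The calls of Dut and Nme1 were lost without day 21 array 1, and that of Dut also without array 2. Of one-carbon genes, which feed formyl groups to purine synthesis, 2 of 7 were called lower at day 21 (28.6%, against 9.93% of all features). Mthfd1, the cytosolic folate enzyme, was -0.81, -0.92 and -0.66 (adjusted p = 7.80e-05). Shmt1, a serine hydroxymethyltransferase, was -0.31 ± 0.14 (adjusted p = 0.0152), with probes at 0.03 and -0.65, and its call was lost without day 21 array 1 or array 3.

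At the earlier days fewer of the 62 genes were called. At day 15, 11 were called lower (17.7%, against 4.9% of all features) and 1 higher (5.66% of all features), with 6 lower without day 15 array 1 and 4 without array 2. At day 8, 1 was called lower (1.06% of all features) and 0 higher (1.23% of all features). At day 4 limma called 0 of 62, with 4 at an unadjusted p under 0.05 (10.1% of all features were), and 0 of 10689 features. Between day 21 and day 4, 11 were lower at day 21 (17.7%, against 3.22% of all features) and 0 higher (2.62% of all features). That count was 5 without day 4 array 1, 5 without day 4 array 3, 6 without day 21 array 1 and 5 without day 21 array 2. In limma's contrasts of day 8 with day 4, day 15 with day 8 and day 21 with day 15, 0 of 62 genes were called, with 7, 12 and 2 at an unadjusted p under 0.05, where 6.98%, 9.22% and 6.31% of all features were. Of all features 0.00936% were called higher at day 21 than at day 15.

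**Figure D4:**
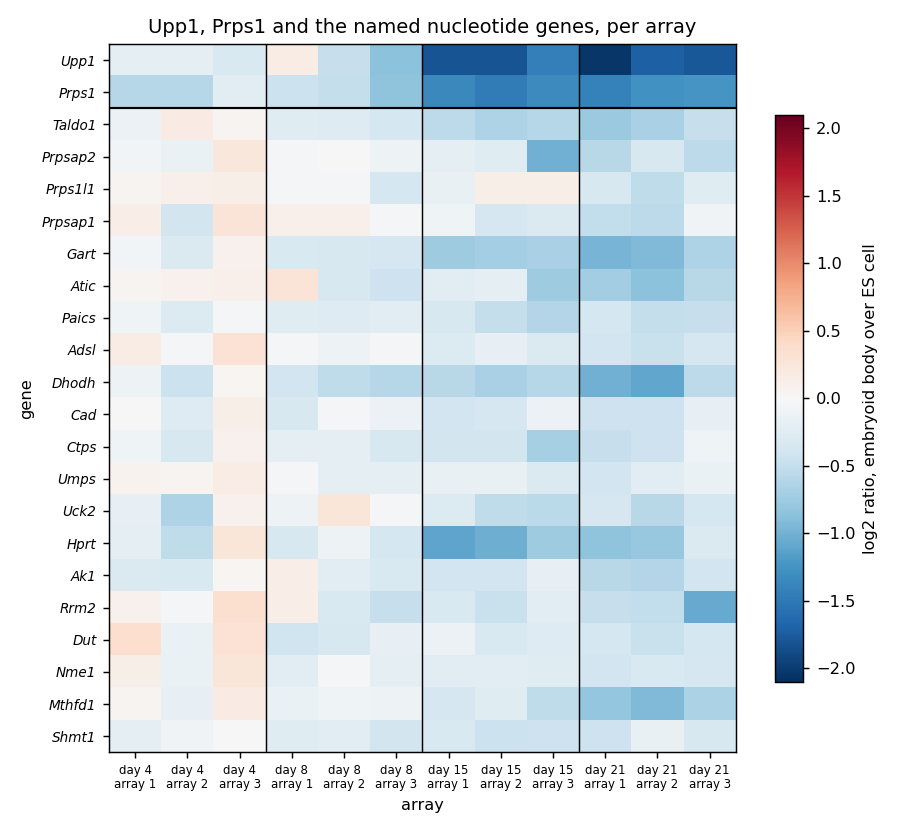
Log2 ratio of embryoid body over ES cell (colour) on each of 12 arrays (columns, by day) for Upp1 and Prps1 (top rows) and the 20 nucleotide genes called lower at day 21 (rows below the line). Upp1 and Prps1 are deep blue on all day 15 and day 21 arrays, while the 20 genes are paler. Of these, 19 had a day 15 mean below 0 and 10 were also called lower at day 15.

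Of 7 measured markers of dividing cells, 4 were called lower at day 15 (57.1%, against 4.9% of all features) and 6 at day 21 (85.7%, against 9.93%). Their list median by array was -0.40, -0.51 and -0.37 at day 15 and -0.55, -0.49 and -0.38 at day 21. At day 15, 5 of 7 had a mean below 0, and the others were Mki67 (0.37, 0.15 and 0.02) and Cdk1 (0.26, 0.15 and -0.20), neither of them called. Mki67 was the one not called at day 21, at -0.17 ± 0.13. The part of cell division in the ratios of Upp1, Prps1 and the 20 called genes was not tested.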

How the data were processed

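RNA of embryoid bodies and ES cells was measured on 12 arrays with 2 channels. The deposited values are log2 ratios that the authors normalized. Per the labels they are log ratios; base 2 follows common usage. The normalization method is not stated in these sources. Column medians ran from -0.0018 to 0.0106. No intensities were used, so probes near background could not be marked, and 3 arrays a day set the precision.

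Genes came from GEO's platform annotation: 10043 of 11520 features had 1 symbol, 29 several and 1448 none. By Entrez ID 10025 symbols matched RefSeq's table, and 0 changed. Probes of a gene were averaged, giving 10689 features. A linear model with a coefficient per day was fitted to all 12 arrays (limma 3.58.1 under R 4.3.3, lmFit and eBayes), with two-sided p-values adjusted by Benjamini-Hochberg over all features (threshold 0.05). The ES channel counts as 1 control sample, whose own spread the test leaves out. The fit was also run on simulated data with independent noise on each array. That noise had no array sets and no shared ES channel, so nothing is concluded from it for these data.

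Upp1, Prps1 and the lists were chosen with earlier results of these data known. Named list genes are the up to 4 called genes per list with the largest absolute day 21 mean, and called genes of the opposite sign. Others named were chosen after their values were seen, or are relatives. Likeness is Pearson's r over 12 arrays. Alternatives were other normalizations, array weights, array set or replicate terms, probes on their own, each day alone and leaving out each array. Plots used matplotlib 3.10.9.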

Additional observations from a re-analysis of the deposited data

Results flagged for a closer look

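For 11 nucleotide genes the difference from ES cells changed between days by limma's contrast of day 21 minus day 4, adjusted over all features. All 11 were lower at day 21. In the deoxynucleotide group these were Tyms, thymidylate synthase (-0.85, adjusted p = 0.00788), Rrm2 (-0.82, adjusted p = 0.0229), Dtymk, thymidylate kinase (-0.71, adjusted p = 0.0186), Dut (-0.57, adjusted p = 0.0287) and Nme1 (-0.44, adjusted p = 0.0412). Tyms was 0.84, 0.46 and 0.61 on the day 4 arrays (adjusted p = 0.101) and -0.19, -0.26 and -0.18 on the day 21 arrays (adjusted p = 0.197), so it passed against ES cells on neither day. In purine synthesis they were Atic (-0.81, adjusted p = 0.0255), Gart (-0.76, adjusted p = 0.00477) and Adsl (-0.54, adjusted p = 0.012). The others were Mthfd1 (-0.82, adjusted p = 0.00276), Dhodh (-0.71, adjusted p = 0.02) and Taldo1 (-0.68, adjusted p = 0.00498). Upp1 (-1.61) and Prps1 (-0.83) are given beside them without a test. Groups of 3 arrays were not tested for single outlying arrays.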

How the results depend on the processing

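Upp1 at day 8 was 0.16 in the first array set, which is 1 array there. All other day means of Upp1 and Prps1 were below 0 under the other normalizations, the replicate block, the set term and the first set. They were also below 0 with the probe settings and leaving out each array. For array weights and each day alone, only the other nucleotide genes are reported. Scaling arrays to one spread, which shrinks the wider late arrays, moved Upp1 at day 21 to -1.50 and Prps1 to -1.31 at day 15 and -1.06 at day 21. Quantile normalization gave -1.68 and -1.19 at day 21.

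Counts of the 62 nucleotide genes called lower moved as follows. With quantile normalization they were 5 at day 8, 12 at day 21 and 7 for day 21 minus day 4, and with scaling 5, 11 and 6. With array weights they were 7 at day 8, 22 at day 15, 17 for day 21 minus day 4, 2 for day 8 minus day 4 and 5 for day 15 minus day 8. With the array set as a term 2 were lower at day 8, and 2 with probes on their own. In the first array set 0 were lower at day 8 and 7 for day 21 minus day 4. With each day alone 0 were lower at day 8 and 5 at day 15. Counts called higher at day 4 were 1 with quantile normalization, 1 with scaling, 1 with the set term and 2 with array weights. At day 8 they were 2 with each of quantile normalization, scaling and array weights. At day 15 they were 3 in the first set, 7 with array weights and 0 with each day alone. At day 21 they were 1 in the first set and 3 with array weights. Array weights gave 2 higher for day 15 minus day 8, and the first set 1 for day 21 minus day 4. Leaving out 1 array gave 0 to 4 lower at day 8, 4 to 13 at day 15, 9 to 23 at day 21 and 5 to 13 for day 21 minus day 4, and 0 to 2 higher at day 15 and 0 to 1 at day 21. The cause was not tested.

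Replicate numbers are shared between days, and same-numbered arrays deviated together more often than others, though not all did. Of 18 same-numbered pairs 8 had r over 0.1 (median 0.081, range -0.14 to 0.389). Of 36 pairs with different numbers 5 did (median -0.034, range -0.322 to 0.186). Of 12 arrays 8 correlated best with their own number. The numbers nearly follow the array sets. Array 1 of every day was in the first set and array 3 in the second, and array 2 was in the first except at day 8. This check had no set term, so a shared number cannot be told apart from a shared set. The main fit has no term for the number. With the replicate block 20 of 62 genes were lower at day 21, 12 at day 15 and 11 for day 21 minus day 4, and the Upp1 mean at day 21 was -1.85. Ctps alone among the named genes lost its call there. Of the 20 named calls at day 21, 9 held under all 22 alternatives: Taldo1, Gart, Atic, Paics, Adsl, Dhodh, Ak1, Rrm2 and Mthfd1. The other 11 were lost under at least 1. Quantile normalization and scaling each lost the calls of Prpsap2, Prpsap1, Cad, Ctps, Umps, Uck2, Dut and Nme1. Scaling also lost that of Shmt1. With each day alone those of Prpsap1, Cad, Ctps, Umps and Shmt1 were lost, and with the set term those of Prpsap1 and Ctps. In the first array set those of Dut and Shmt1 were lost.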
